A study of Danio rerio with 4 samples.

Results

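The Hox cluster genes were examined in RNA-seq libraries of sorted cells from zebrafish larvae. They were chosen as the protein-coding genes of the annotation whose symbol is hox followed by a cluster letter, a paralogue number and the duplicate letter a or b. There were 49 such genes among 42298 annotated genes, of which 26381 were protein coding. They were grouped by paralogue number into 14 anterior genes (paralogues 1 to 4), 12 central genes (5 to 8) and 23 posterior genes (9 to 13). According to the sample labels, all 4 libraries came from whole larvae at 5 dpf (days postfertilization) that were dissociated and sorted for mCherry fluorescence, which is driven by the preproinsulin promoter. The 2 wild-type libraries were from Tg(ins:mCherry) larvae and the 2 mutant libraries from alms1-/- larvae carrying the same transgene, so every library carried the reporter. Many larvae were pooled for the wild-type sort. The methods do not describe the mutant libraries apart from the labels, and whether the duplicates came from separate sorts or clutches was not stated, so p-values measure only the spread between these libraries, which may be technical. In bulk libraries of this kind, fewer cells of a type and less RNA per cell cannot be told apart.

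Hox genes encode homeodomain transcription factors that give cells their position along the head-to-tail axis. Within a cluster the genes lie in the order in which they act: paralogues with low numbers pattern the hindbrain and pharyngeal arches, those in the middle the trunk, and those with high numbers the tail and the far parts of the fins. The teleost genome duplication left zebrafish with duplicate clusters, marked a and b. Hox proteins bind DNA together with TALE homeodomain cofactors of the Pbx and Meis families, their early domains are set by retinoic acid and Cdx factors, and Polycomb and trithorax complexes keep them silent or active afterwards. They are not among the usual markers of β-cells.

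The libraries held 42761199 to 50467517 reads over genes. The targeted gene alms1 had 22.8 and 17.4 CPM (reads scaled to the same library total) in wild type against 10.4 and 23.1 in the mutants, so that its groups overlapped (log2 fold change -0.81, SE 0.368, adjusted p = 0.104, edgeR quasi-likelihood test, Benjamini-Hochberg). Without alms1 mutant replicate 2 that p was 0.0414, so the second mutant library decided the call, and the level of alms1 gave no clear check of the genotype labels. All 20 β-cell marker genes had reads in every library, at 0.0241% and 0.0194% of reads in wild type against 0.0379% and 0.0432% in the mutants. The insulin gene ins had 20 and 61 reads in wild type against 534 and 447 in the mutants. The 12 skin genes together took 4.86% and 3.596% of reads in wild type against 0.640% and 0.655% in the mutants, so both groups held far more RNA of skin genes than of the 20 β-cell genes. The level of reads spread over long genes, taken as the 10th percentile of reads per kb among 1509 genes of 80 to 160 kb, was 8.03 and 5.23 in wild type against 15.005 and 21.8 in the mutants.

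The 49 genes lay in 7 clusters of the GRCz10 assembly. The hoxaa cluster (7 genes) spanned chr19:20156561-20215066, hoxab (5 genes) chr16:21090085-21123248, hoxba (11 genes) chr3:23523685-23640163 and hoxbb (4 genes) chr12:27026249-27051475. The hoxca cluster (11 genes) spanned chr23:35954141-36092874, hoxcb (4 genes) chr11:2100982-2214267 and hoxda (7 genes) chr9:1936255-1989514. The annotation gave each of the 49 genes a single span with no intron removed, so reads over introns were counted with those over exons.

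Where annotated spans overlapped, a read could not be given to one gene, and this touched each of the 7 clusters. In hoxab, hoxbb and hoxcb no gene was free of overlap. Of the 49 genes, 19 overlapped no other annotated gene and kept their reads as uniquely mapped. A further 10 were overlapped only by rows without an exon (noncoding RNAs or pseudogenes). Almost none of the reads of these 10 were uniquely mapped (at most 0.0865% of the reads of any of them). The other 20 shared their span with another gene that has exons: the row of hoxc3a ran over hoxc4a, hoxc5a, hoxc6a, hoxc8a and hoxc9a, that of hoxb3a over hoxb4a, hoxb5a and hoxb6a, that of hoxb1b over hoxb5b and hoxb6b, and that of hoxa4a over hoxa5a. All 4 hoxcb genes overlapped hnrnpa1a, and hoxd3a overlapped an uncharacterized gene. Rows without an exon also overlapped hoxc3a, hoxb3a and hoxb1b. How shared reads were divided between overlapping rows is not stated in the sources used here. Since the library preparation did not mark strand, reads from either strand were counted alike.

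**Figure D1:**
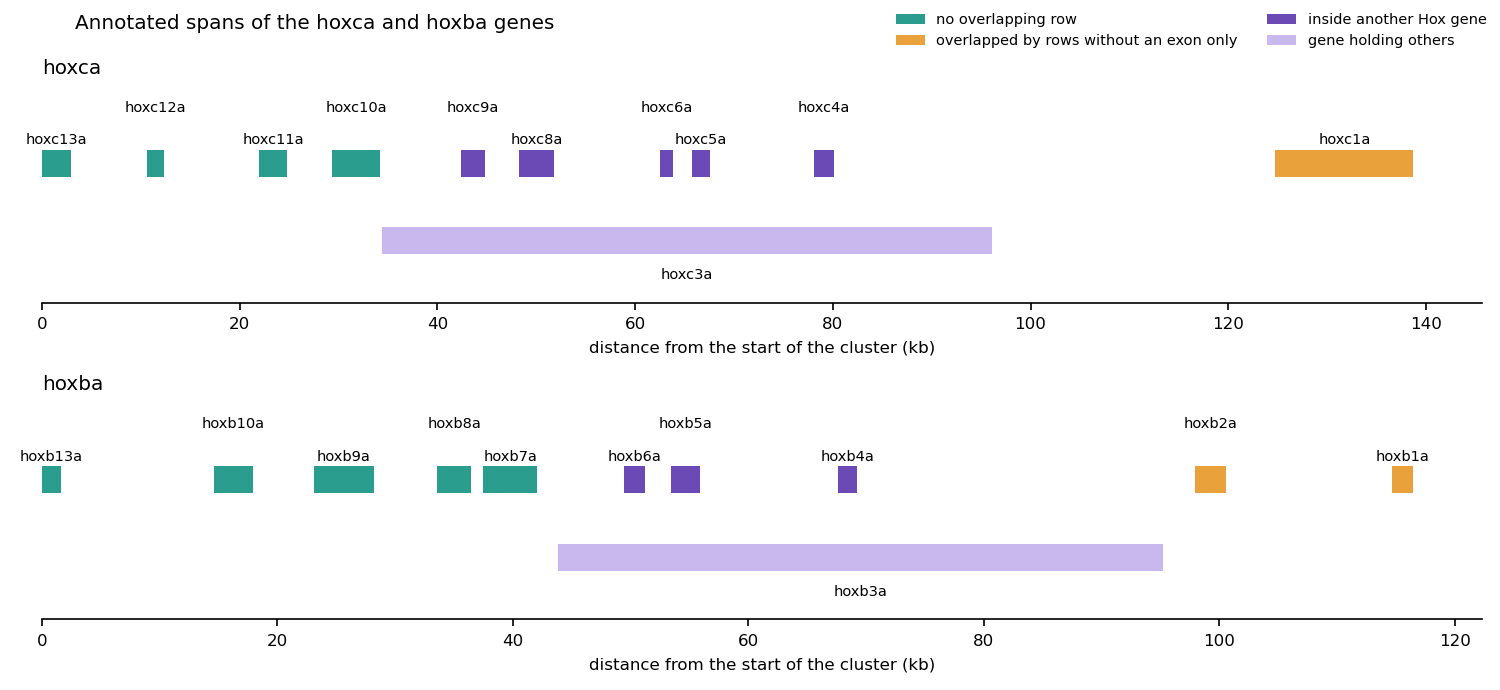
Annotated spans of the hoxca and hoxba genes, with distance in kb from the start of each cluster on the x axis. The row of hoxc3a holds 5 other Hox genes and that of hoxb3a holds 3, while hoxc10a to hoxc13a and hoxb7a to hoxb13a lie clear of them.

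In wild type Hox genes of each paralogue class were detected, with the highest levels by gene length among posterior genes. The libraries held dissociated cells, so position along the axis was not measured. Detection required at least 10 reads and 1 TPM (reads scaled by gene length to the same total in each library) in both libraries, and 44 of the 49 genes met this limit, against 64.0% of all protein-coding genes. The median of the members' mean TPM was 9.67, against 2.45 for all protein-coding genes. By class, the median was 7.56 TPM for anterior, 8.34 for central and 14.2 for posterior genes. Summed CPM, which is not scaled by gene length, was higher for anterior genes (313 and 330) than for posterior genes (203.1 and 176). The 5 genes not detected were hoxa5a, hoxb4a, hoxc11b, hoxc12b and hoxc13b, each of which shares its span with another gene. Only 21 members had enough uniquely mapped reads to meet the same rule.

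The highest level in wild type was that of hoxa13b, at 93.6 and 55.8 TPM (mean 74.7 ± 26.7 SD, n = 2), and its duplicate hoxa13a followed at 58.6 and 30.6 TPM. Both act in the far part of the growing fins and in the tail. Next came hoxd9a, a gene of the fin bud, at 39.9 and 31.6 TPM, hoxb5b at 39.4 and 25.2 TPM, and hoxc13a at 31.9 and 24.95 TPM. These neighbours in the order did not differ beyond the spread between the libraries. Among anterior genes the highest were hoxa3a (32.9 and 13.98 TPM), hoxa2b (22.6 and 16.8 TPM), which gives the second pharyngeal arch its identity, and hoxb2a (16.3 and 20.9 TPM). None of the reads of hoxa13b, hoxb5b, hoxa3a, hoxa2b and hoxb2a were uniquely mapped. At the other end, hoxc13b had 0 reads in each of the 4 libraries, a count that allows up to 3 reads in each.

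**Figure D2:**
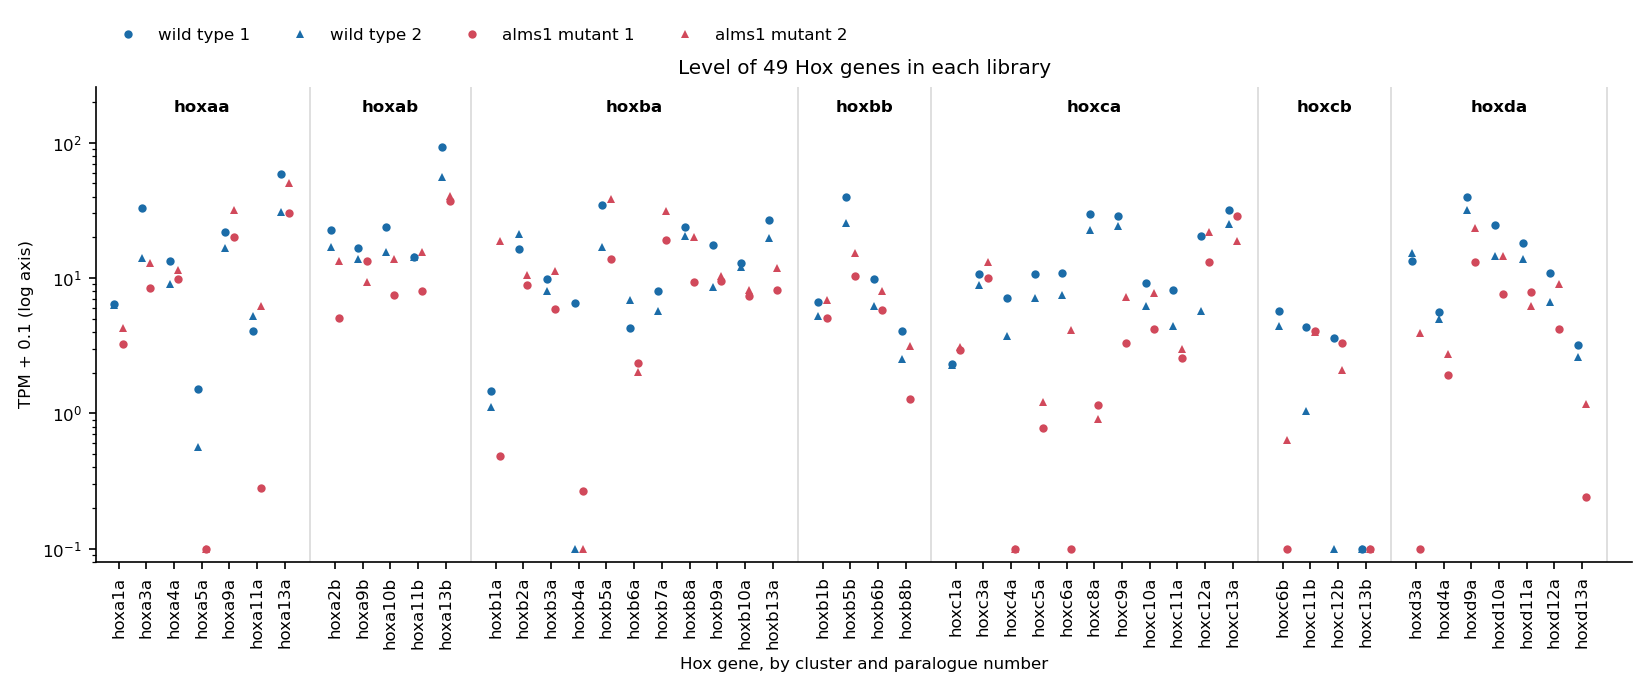
Level of each of the 49 Hox genes in TPM (plus 0.1, log axis), by cluster and paralogue number, with a point for each library. Points at the bottom are libraries with 0 reads. hoxa13b was highest in both wild-type libraries, and hoxc4a, hoxc5a, hoxc8a and hoxc9a show the mutant points far below the wild-type points, in spans shared with hoxc3a. TPM puts the mutants higher relative to wild type than the normalization used for the tests, by which hoxc3a and hoxb1b fell, while their TPM did not.

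In the alms1 mutants 37 of the 49 members were detected by the same rule, while the share of all protein-coding genes detected was higher than in wild type, at 85.4%. Of the 23 posterior genes 20 were detected in the mutants and 20 in wild type. The anterior class had 10 of 14 in the mutants and 13 in wild type, and the central class had 7 of 12 in the mutants and 11 in wild type. The median of the members' mean TPM was 6.95, with 7.22 for anterior, 2.09 for central and 9.88 for posterior genes. Set against the level of reads spread over long genes in the same library, 44 members lay above it in both wild-type libraries and 29 in both mutant libraries. The median member stood at 12.02 and 16.8 times that level in wild type and at 2.38 and 2.34 times in the mutants. The long-gene level was itself higher in the mutants and enters this ratio.

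The Hox genes as a family were lower in the mutants. They took 0.0600% and 0.0582% of all reads in wild type against 0.0335% and 0.0381% in the mutants. Of 46 members tested by edgeR's quasi-likelihood test, 33 fell and 0 rose at an adjusted p under 0.05, against 24.3% of 28079 genes tested that fell and 19.2% that rose. Among protein-coding genes alone 26.5% fell. The members' median log2 fold change was -1.76, and the median of all genes was 0.03. The fold changes of 44 members were negative, and 41 and 37 remained so with library totals and on the log2(TPM + 1) scale. In CPM, 38 of the 49 had both mutant libraries below both wild-type libraries, 1 (hoxb7a) had both above, and 10 overlapped, whereas among all genes tested 26.0% were lower and 51.4% higher without overlap. At an unadjusted p under 0.05 the count of members higher was 1, and DESeq2 called 1, in both cases hoxb7a.

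How many members passed depended on scaling and on single libraries. With library totals in place of trimmed-mean (TMM) factors, 16 fell and 1 (hoxb7a) rose, and with limma on log2(TPM + 1) 14 fell and 1 rose. Those that fell were 34.8% and 30.4% of the members tested, against 12.8% and 5.87% of all genes in the same fits. These scalings moved the median of all genes to 0.57 and 0.69, and the members' median stayed below it by 1.74 and 1.34 log2 units, against 1.79 in the fit above. Without alms1 mutant replicate 1 the count of members that fell was 21, and without alms1 mutant replicate 2 it was 20, or 43.8% and 41.7% of members against 16.1% and 13.96% of all genes. With the long-gene level subtracted from every gene it was 10 of 45, or 22.2%, against 15.4% of all genes. Over all alternatives, 7 members fell each time they were tested: hoxa13b, hoxb5b, hoxc4a, hoxc5a, hoxc6b, hoxc8a and hoxc9a. None of the 7 had a uniquely mapped read, so the fit on uniquely mapped reads did not cover them. All but hoxa13b share their span with another gene that has exons, and hoxa13b is overlapped by a row without an exon.

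**Figure D3:**
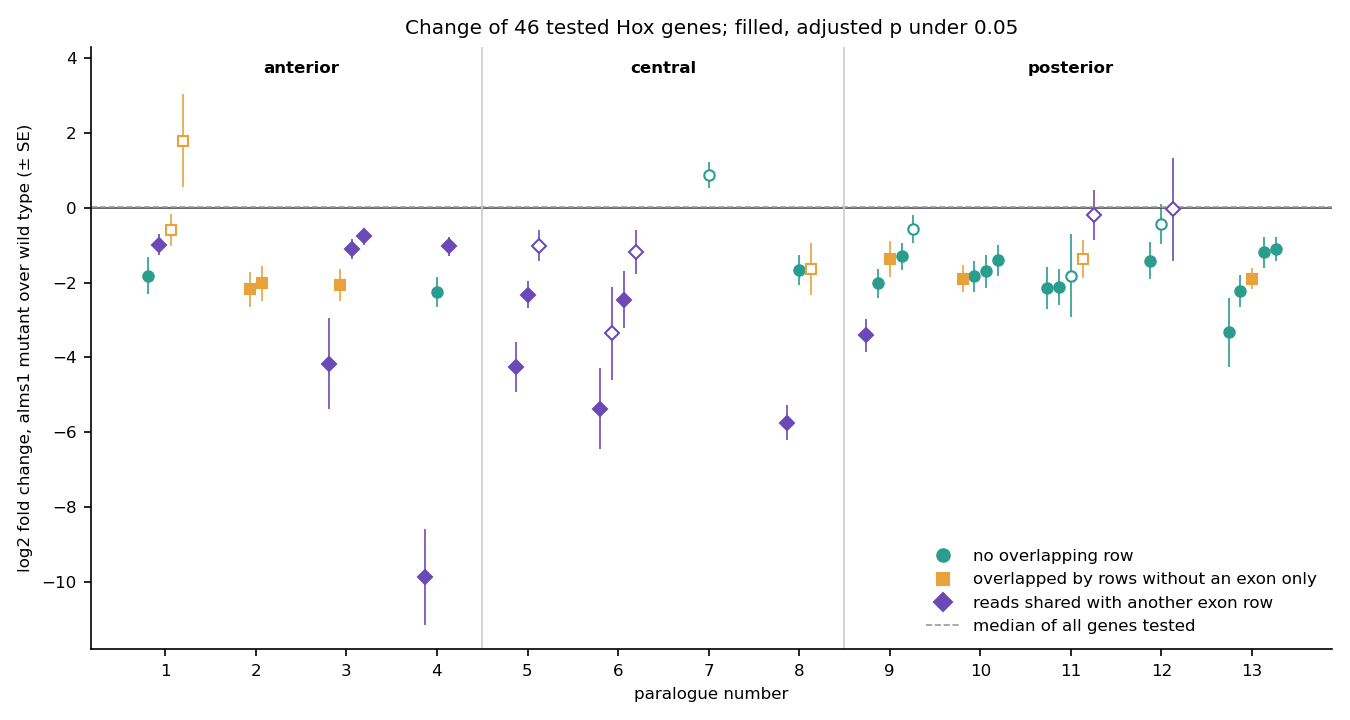
Log2 fold change of the 46 tested Hox genes (alms1 mutant over wild type, ± SE) against paralogue number, with filled points for an adjusted p under 0.05 and the marker showing whether the span overlaps other rows. The median was -1.76, the lowest points are genes that share their span with another gene, and 2 genes, hoxb1a and hoxb7a, lie above 0. Among the filled points, hoxc3a and hoxb1b turn positive on the TPM scale.

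Of the 23 posterior genes 15 overlap no other gene, so most of their reads could be assigned. Of 22 tested, 16 fell (72.7%, against 24.3% of all genes tested) and the median log2 fold change was -1.56. The 15 without overlap had 12 that fell and a median of -1.70, and their summed CPM was 129 and 111 in wild type against 63.9 and 66.7 in the mutants. With library totals only hoxb13a, hoxd9a, hoxd11a and hoxd13a of these 15 fell, and the same genes fell with limma on log2(TPM + 1). In those fits 12.8% and 5.87% of all genes fell. With the long-gene level subtracted only hoxd13a of the 15 fell, where 15.4% of all genes did. By edgeR with TMM, all 5 tested members of paralogue 13 and all 4 of paralogue 10 were among the 16 that fell. With library totals 3 and 1 of them did, with limma on log2(TPM + 1) 3 and 0, with the long-gene level subtracted 2 and 0, and without either mutant replicate 3 and 2.

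The strongest posterior gene, hoxa13b, had 1605 and 1180 reads in wild type against 506 and 486 in the mutants, none of them uniquely mapped. Both mutant libraries were below both wild-type libraries, with a log2 fold change of -1.90 (SE 0.286, adjusted p = 0.00185, edgeR). Its duplicate hoxa13a had 927 and 596 reads in wild type against 386 and 567 in the mutants (log2 fold change -1.11, SE 0.319, adjusted p = 0.0231, edgeR). In TPM the hoxa13a groups overlapped, at 58.6 and 30.6 in wild type against 30.4 and 50.6 in the mutants. hoxb13a, a gene of the tail end of the body, had 381 and 345 reads in wild type against 93 and 119 in the mutants, a clear gap between the groups (log2 fold change -2.22, SE 0.436, adjusted p = 0.00503, edgeR). hoxc13a, whose counterpart in mice and humans is needed for hair and nails, had 833 and 804 reads in wild type against 600 and 344 in the mutants (log2 fold change -1.19, SE 0.409, adjusted p = 0.0440, edgeR). Its TPM overlapped between the groups, at 31.9 and 24.95 in wild type against 28.5 and 18.6 in the mutants. It did not pass with library totals (adjusted p = 0.218, edgeR) or with limma on log2(TPM + 1) (adjusted p = 0.595). hoxd13a had few reads, 81 in each wild-type library and 3 and 20 in the mutants.

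In hoxab (5 genes) and hoxbb (4 genes), as in hoxda, every member had both mutant libraries below both wild-type libraries in CPM. DESeq2 called 5 of 5 lower in hoxab and 6 of 7 in hoxda. By edgeR at an adjusted p under 0.05, the hoxda cluster was the only one in which every member fell, 7 of 7. Its median log2 fold change was -2.12. That count was 4 with library totals, with limma and without alms1 mutant replicate 1, and 2 with the long-gene level subtracted. Its posterior genes, hoxd9a to hoxd13a, pattern the fins and the hind part of the body, and 6 of the 7 hoxda genes overlap no other gene. hoxd9a had 586 and 572 reads in wild type against 155 and 241 in the mutants (log2 fold change -2.02, SE 0.383, adjusted p = 0.00441, edgeR). hoxd10a, hoxd11a and hoxd12a had log2 fold changes of -1.83, -2.12 and -1.41, and hoxd13a of -3.33 (SE 0.916). In TPM the groups overlapped for hoxd10a (24.6 and 14.43 in wild type, 7.47 and 14.52 in the mutants). They also overlapped for hoxd12a (10.7 and 6.53 in wild type, 4.13 and 8.98 in the mutants). The anterior member hoxd4a, which is active at the boundary of hindbrain and spinal cord, had 499 and 541 reads in wild type against 132 and 170 in the mutants (log2 fold change -2.25, SE 0.405, adjusted p = 0.00359, edgeR). In the mutants hoxd4a was at 0.862 and 0.766 times the long-gene level, and in wild type at 6.10 and 10.1 times. hoxd3a had 241 and 342 reads in wild type against 0 and 49 in the mutants, in a span it shares with an uncharacterized gene.

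Not every posterior gene without overlap passed. hoxa9a had 392 and 368 reads in wild type against 291 and 410 in the mutants, so the groups overlapped (log2 fold change -0.58, SE 0.377, adjusted p = 0.240, edgeR). hoxc12a overlapped too, with 303 and 104 reads in wild type against 157 and 233 in the mutants. hoxa11a, named here after its values were seen, had 82 and 132 reads in wild type, 3 in the first mutant library and 90 in the second. The first mutant library alone was low, and the second lay within the wild-type range.

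In the central class 6 of 11 tested genes fell (54.5%, against 24.3% of all genes tested). The median log2 fold change of -2.32 was the lowest of the 3 classes, but 9 of the 12 central genes share their span with another gene. Only hoxb7a and hoxb8a, trunk genes that lie side by side in hoxba, have reads of their own, and they went opposite ways. hoxb8a had 594 and 631 reads in wild type against 186 and 357 in the mutants (log2 fold change -1.67, SE 0.394, adjusted p = 0.0105, edgeR). hoxb7a had 320 and 280 reads in wild type against 618 and 896 in the mutants, so both mutant libraries were above both wild-type libraries (log2 fold change 0.88, SE 0.341, adjusted p = 0.0649, edgeR). Relative to the long-gene level hoxb7a stood at 8.74 and 11.7 in wild type against 9.03 and 9.03 in the mutants. By uniquely mapped reads, which exist for hoxb7a and hoxb8a alone, the median of the central class was -0.41.

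Among the central genes inside other genes, hoxc8a showed the largest gap. This gene, which marks the thoracic trunk in mice, had 937 and 885 reads in wild type against 27 and 18 in the mutants (log2 fold change -5.75, SE 0.471, adjusted p = 0.000479, edgeR). hoxc5a had 172 and 141 reads in wild type against 9 and 13 in the mutants (log2 fold change -4.26, SE 0.668, adjusted p = 0.00212, edgeR). hoxb5b had 727 and 574 reads in wild type against 153 and 199 in the mutants (log2 fold change -2.32, SE 0.362, adjusted p = 0.00207, edgeR). In each of these 3 genes the groups were well apart. None of their reads were uniquely mapped, so the counts depend on how reads shared with the surrounding gene were divided. hoxc6a, with 126 and 106 reads in wild type against 0 and 33 in the mutants, did not pass (adjusted p = 0.0569, edgeR), and its duplicate hoxc6b, with 309 and 297 reads in wild type against 0 and 21 in the mutants, did (adjusted p = 0.00555, edgeR). hoxb5a had 740 and 446 reads in wild type against 235 and 576 in the mutants, which overlapped. hoxa5a had 15 and 6 reads in wild type and 0 in both mutant libraries, too few to test.

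In the anterior class 11 of 13 tested genes fell (84.6%, against 24.3% of all genes tested), with a median log2 fold change of -1.81. With library totals only hoxa2b, hoxa3a, hoxb2a, hoxc4a and hoxd4a of this class fell. With limma on log2(TPM + 1) only hoxa2b, hoxc4a and hoxd3a did, and with the long-gene level subtracted only hoxc4a and hoxd4a. The 2 that overlap no other gene, hoxa1a and hoxd4a, both fell. hoxa2b had 480 and 440 reads in wild type against 85 and 200 in the mutants (log2 fold change -2.18, SE 0.463, adjusted p = 0.00681, edgeR). hoxb2a, active in the hindbrain, had 388 and 614 reads in wild type against 169 and 176 in the mutants (log2 fold change -2.02, SE 0.462, adjusted p = 0.00923, edgeR). hoxa3a had 615 and 322 reads in wild type against 126 and 171 in the mutants (log2 fold change -2.06, SE 0.425, adjusted p = 0.00609, edgeR). In all 3 genes the mutant libraries lay below the wild-type ones, and none of the reads were uniquely mapped. hoxa4a, with 1580 and 1322 reads in wild type against 940 and 964 in the mutants, had a log2 fold change of -1.03 (SE 0.259, adjusted p = 0.0134, edgeR). Its TPM overlapped between the groups (13.2 and 8.98 in wild type, 9.79 and 11.4 in the mutants), and it did not pass with library totals (-0.50, adjusted p = 0.172, edgeR) or with limma on log2(TPM + 1) (-0.04, adjusted p = 0.947).

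Some anterior genes rested on few or uneven reads. hoxc4a had 124 and 79 reads in wild type and 0 in both mutant libraries. Against a floor of 3 reads per mutant library its CPM was at least 31.3-fold lower, and as its span lies within hoxc3a this bound covers counting error only. hoxb4a had 97 and 0 reads in wild type against 2 and 0 in the mutants and was not tested. hoxb1a, which marks a single segment of the hindbrain and is named here after its values were seen, had 22 and 20 reads in wild type against 5 and 214 in the mutants. The second mutant library alone was high, the whole comparison gave an adjusted p of 0.265 by edgeR, and without alms1 mutant replicate 1 hoxb1a was called higher.

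In the hoxc3a locus the outer gene changed less than the genes inside it, a difference that was not tested. hoxc3a had 5785 and 5943 reads in wild type against 4392 and 5033 in the mutants (log2 fold change -0.77, SE 0.236, adjusted p = 0.0296, edgeR). Its uniquely mapped reads, none of which lie in the inner genes, were 693 and 669 in wild type against 821 and 1264 in the mutants, and gave a log2 fold change of 0.13 (adjusted p = 0.734, edgeR). A row without an exon also overlaps hoxc3a, and it covers hoxc4a, hoxc5a and hoxc6a but not hoxc8a or hoxc9a. The uniquely mapped reads, 16.3% of all hoxc3a reads, therefore came from only part of its span and need not stand for the whole gene. The 5 inner genes took 25.6% and 23.8% of the reads of the whole locus in wild type against 2.07% and 3.36% in the mutants. With all 6 genes summed into 1 locus, the CPM was 154 and 163 in wild type against 105 and 106 in the mutants (log2 fold change -1.14, SE 0.236, adjusted p = 0.00626, edgeR). The locus fell as a whole, while its uniquely mapped reads passed the test in neither direction. On the TPM scale hoxc3a also changed sign, to 0.22.

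The hoxb1b locus moved in the same sense, with the inner genes hoxb5b and hoxb6b at 44.1% and 39.2% of its reads in wild type against 24.2% and 25.5% in the mutants. There, however, the uniquely mapped reads of hoxb1b fell as well, from 463 and 518 in wild type to 120 and 102 in the mutants (log2 fold change -2.59, adjusted p = 0.00160, edgeR). A row without an exon also overlaps hoxb1b, so these reads too came from only part of its span. In the hoxb3a locus the inner share was 17.0% and 11.3% in wild type against 10.99% and 14.1% in the mutants, which overlapped. Its summed reads fell, with a log2 fold change of -1.12 (SE 0.255, adjusted p = 0.00884, edgeR). With overlapping Hox genes summed in this way, 27 of 37 loci (73.0%) fell, against 24.3% of all genes in the same fit. The median log2 fold change of the loci was -1.65.

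Summed over the annotated rows of a class, CPM was lower in the mutants in each class. Anterior genes together had 313 and 330 CPM in wild type against 211 and 241 in the mutants, central genes 83.6 and 76.6 against 31.2 and 46.04, and posterior genes 203.1 and 176 against 92.8 and 93.9. Mutant and wild-type libraries did not overlap in any class. Over the genes without overlap, central genes differed from this, with 18.1 and 19.1 CPM in wild type against 18.8 and 25.6 in the mutants, all of them reads of hoxb7a and hoxb8a. Those 2 genes moved in opposite directions. The anterior genes without overlap, hoxa1a and hoxd4a, summed to 14.1 and 16.7 CPM in wild type against 5.07 and 5.52 in the mutants. Most of the sum of all anterior genes lay in hoxb3a and hoxc3a, whose rows run over central genes and hoxc9a. In wild type hoxb3a had 87.5 and 94.1 CPM and hoxc3a 115 and 124. In the mutants hoxb3a had 50.2 and 74.4 CPM and hoxc3a 103 and 103. Pearson's r between log2 fold change and paralogue number was 0.08 over the 46 tested genes and -0.10 over the 19 without overlap, as a description of genes that share the same libraries.

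**Figure D4:**
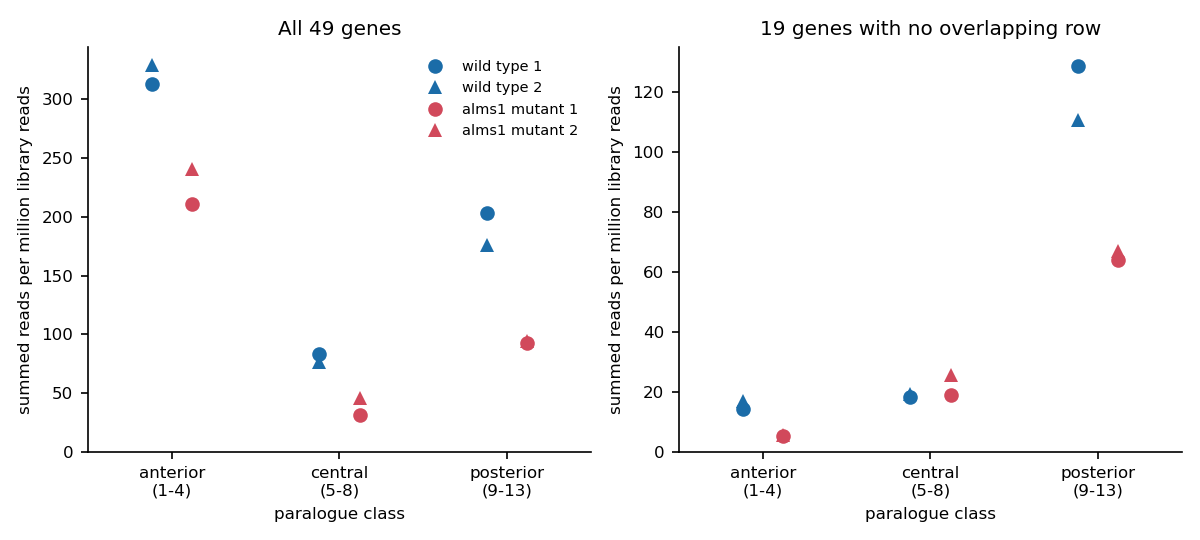
Summed CPM of the anterior, central and posterior Hox genes, with a point for each library, for all 49 genes (left) and for the 19 that overlap no other gene (right). Mutant points lie below wild-type points in each class on the left, while on the right the central class shows mutant points at 18.8 and 25.6 beside wild-type points at 18.1 and 19.1.

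Of the 11 duplicate pairs (the a and b copies of a paralogue), hoxa13 was the only one in which both copies passed by edgeR as lower. In hoxb6, hoxb8 and hoxc6 both copies also had both mutant libraries below both wild-type libraries in CPM. There hoxb6b, hoxb8b and hoxc6a did not pass (adjusted p = 0.129, 0.0858 and 0.0569, edgeR). DESeq2 called both copies of hoxb5 and of hoxc6 lower as well. The a copy had the higher TPM in all 4 libraries in 4 pairs (hoxa9, hoxb8, hoxc12 and hoxc13) and the b copy in 1 (hoxa11). In hoxa13 the order turned within the mutants: the a copy had 0.626 and 0.548 times the TPM of the b copy in wild type and 0.827 and 1.27 times in the mutants. For hoxb5 the a copy had 0.882 and 0.673 times the TPM of hoxb5b in wild type and 1.33 and 2.51 times in the mutants. Both are nested genes, and the difference between copies was not tested. By cluster, 4 of 6 tested genes fell in hoxaa, 4 of 5 in hoxab, 7 of 10 in hoxba, 2 of 4 in hoxbb, 8 of 11 in hoxca and 1 of 3 in hoxcb. Of all genes tested 24.3% fell, and the 33.3% in hoxcb was near that share. In the same order of clusters, the counts were 1, 3, 2, 1, 4 and 1 with library totals. They were 0, 2, 1, 1, 5 and 1 with limma on log2(TPM + 1), and 0, 1, 0, 2, 4 and 1 with the long-gene level subtracted.

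The counts in the lists of Hox cofactors and regulators moved with the scaling. Of all genes tested, 12.8% fell and 29.0% rose with library totals, and 5.87% fell and 35.1% rose with limma on log2(TPM + 1). Of 15 TALE homeodomain genes tested, 10 fell and 1 rose, with a median log2 fold change of -1.02. The 4 with the smallest adjusted p were tgif1 (log2 fold change -2.24), a repressor of the family, and the Hox cofactors meis1b (-1.85), pbx2 (-1.53) and meis2b (-1.35). The one that rose was pbx3a, at 1.43. With library totals 5 fell and 4 rose, and with limma on log2(TPM + 1) 1 fell and 3 rose. The count that fell was 6 without alms1 mutant replicate 1 and also 6 without alms1 mutant replicate 2.

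Of 22 retinoic acid pathway genes 11 fell and 3 rose (median log2 fold change -0.72), whereas 5 fell and 7 rose with library totals and 3 fell and 6 rose with limma on log2(TPM + 1). Those with the smallest adjusted p were rdh10a (-2.33), an enzyme that makes retinal, cyp26b1 (-2.24), which degrades retinoic acid, and the retinoic acid binding proteins crabp2b (-2.87) and crabp2a (-2.004). Genes for making and for removing retinoic acid were thus both among those that fell. The count that fell was 6 without alms1 mutant replicate 2.

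Of 36 Polycomb and trithorax genes 17 fell and 1 rose (median log2 fold change -0.73), whereas 7 fell and 5 rose with library totals and 1 fell and 2 rose with limma. The 4 with the smallest adjusted p were cbx7a (-2.02), rnf2 (-1.59) and cbx8a (-1.56), parts of the repressive Polycomb complex, and the demethylase gene kdm6al (-2.32), whose family acts against it. Leaving out alms1 mutant replicate 1 or alms1 mutant replicate 2 left 9 that fell in either case.

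Of 12 ParaHox, even-skipped and related homeobox genes, which also carry positional information, 0 fell and 1 rose by edgeR (median -0.01). The list includes pdx1 and mnx1, which are also among the β-cell marker genes (log2 fold changes 0.66 and 1.72, neither passing by edgeR). At an unadjusted p under 0.05 evx2 and eve1 were lower, and DESeq2 called evx2 lower. evx2 (log2 fold change -1.64, adjusted p = 0.0722, edgeR) and eve1 (-1.51, adjusted p = 0.0858, edgeR), which lie at the posterior ends of hoxda and hoxba, had both mutant libraries below both wild-type libraries. The one that rose was cdx4 (3.09, adjusted p = 0.0431, edgeR), whose reads were 16 and 7 in wild type against 24 and 258 in the mutants, so that the second mutant library alone was far above the rest. Without alms1 mutant replicate 2, or without wild type replicate 2, no gene of that list passed. With limma on log2(TPM + 1) 6 of the 12 rose.

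Genes of the fin bud and fin fold, where posterior Hox genes act, had a negative median with TMM, with library totals and with limma. Of 23 tested, 14 fell and 2 rose (tbx4 and fgf8a), with a median log2 fold change of -1.54. With library totals 13 fell and 2 rose (median -1.03), and with limma 8 fell and 2 rose (median -0.53). Those with the smallest adjusted p were sp8a (-3.999), a gene of the fin's outgrowing edge, prrx1b (-2.58) and prrx1a (-2.63) of the fin mesenchyme, and and2 (-2.43), which encodes actinodin of the fin fold fibres. Of 16 neural genes 6 fell (37.5%, against 24.3% of all genes, median -0.70). With library totals 1 fell and 3 rose, where 12.8% of all genes fell and 29.0% rose. Those with the smallest adjusted p were mafba of the hindbrain (-1.79), tubb5 (-1.12), the neural crest gene sox10 (-2.04) and phox2bb (-1.55). Without alms1 mutant replicate 1 the median of the neural list was -0.81, against 0.03 for all genes. Without alms1 mutant replicate 2 it was -0.83, against -0.03. In both fits fewer neural genes passed, as did fewer of all genes.

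The protein-coding genes next to the clusters, 5 on each side, had 28 of 69 tested genes that fell and 11 that rose (median log2 fold change -0.75), whereas 16 fell and 21 rose with library totals and 7 fell and 20 rose with limma. The 4 with the smallest adjusted p were nfe2l2a (-2.74), arl4d (-2.90), bc2 (-2.09) and cbx3b (-2.58), and all of them fell. The share that fell, 40.6%, lay between that of the Hox genes (71.7%) and that of all genes (24.3%), a difference that was not tested. Without alms1 mutant replicate 1 and replicate 2, 20 and 18 of these genes fell. The 10 microRNA genes of the Hox clusters had 0 reads counted in every library. Reads were 150 nt long, and no conclusion on the expression of these microRNAs is drawn from the counts.

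**Figure D5:**
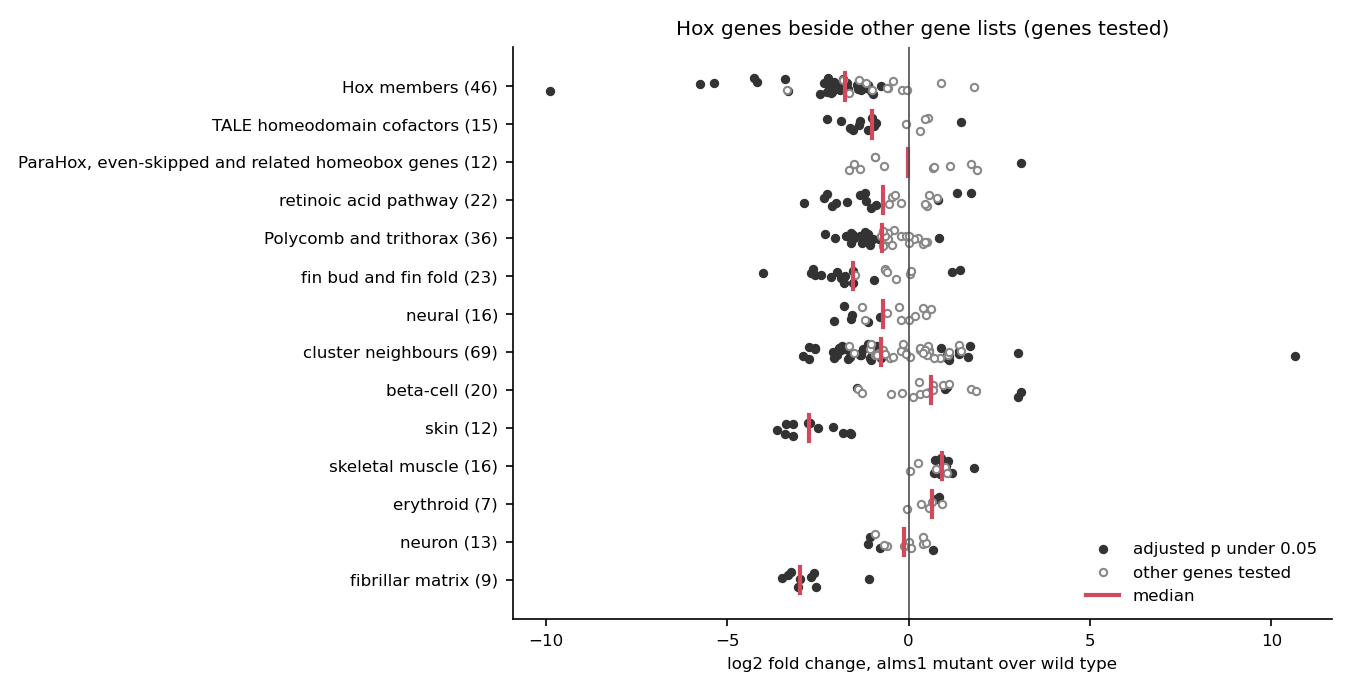
Log2 fold change (alms1 mutant over wild type) of the tested genes of each list, with filled points for an adjusted p under 0.05 and a red bar at the median. The median of the Hox members was -1.76, that of fin genes -1.54, of skin genes -2.75 and of fibrillar matrix genes -2.99, while that of skeletal muscle genes was 0.92. On the log2(TPM + 1) scale the medians of the retinoic acid, Polycomb, neural and neighbour lists turn positive.

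Markers of other tissues moved with the genotype as well, beside every Hox result above. All 12 skin genes fell (median log2 fold change -2.75), as did all 9 fibrillar matrix genes (-2.99), which took 1.25% and 1.40% of reads in wild type against 0.227% and 0.198% in the mutants. Of 16 skeletal muscle genes 11 rose (0 without alms1 mutant replicate 1 and 2 without alms1 mutant replicate 2), and their share of reads was 0.319% and 0.262% in wild type against 1.05% and 0.869% in the mutants. The 7 erythroid genes took 0.993% and 1.48% in wild type against 3.37% and 2.199% in the mutants, and 2 of them rose (0 without alms1 mutant replicate 1, 0 without alms1 mutant replicate 2 and 5 with library totals). The 13 neuron genes took 0.0752% and 0.0728% in wild type against 0.107% and 0.102% in the mutants, while by edgeR 3 of them fell and 1 rose (median log2 fold change -0.14). With library totals 0 of these fell and 3 rose. No marker of these lists was at 0 in any library. The part of these shifts in the lower Hox levels was not tested.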

How the data were processed

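Wild-type and alms1-/- libraries (2 each) of mCherry+ cells were compared. Groups and replicate numbers came from the sample labels. The members and the gene lists were chosen with earlier results of these data known. The authors aligned paired reads with CLC Genomics Server to GRCz10. The annotation and read filters are not stated in the sources used here. The deposited counts are reads per gene, total and uniquely mapped. Exon reads were used where the annotation has exons, and whole-gene reads elsewhere. The deposited TPM and RPKM were computed by the authors' program from reads per kb of gene length. Chromosome numbers were read from GRCz12tu gene symbols, with no coordinate taken from it.

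The test was edgeR 4.0.16 (R 4.3.3), with TMM, filterByExpr, the quasi-likelihood F test and Benjamini-Hochberg adjustment at 0.05 over all genes, without a replicate block. Fold changes are mutant over wild type, and SE is the log2 fold change over the square root of F. DESeq2 1.42.0 and limma 3.58.1, on log2(TPM + 1), served as alternatives. The test was checked on simulated counts, in which 73.5% of genes raised 4-fold and 49.0% of genes lowered to 0.25 were called among 28129 genes, but only 4.08% of genes raised 2-fold. Only a small part of the genes was changed there, whereas in the data 24.3% fell and 19.2% rose. The simulated rates therefore need not hold for these data. Named genes were, in each class, the 4 members highest in either group, the 4 with the smallest adjusted p, the 3 largest changes without overlap and any with 0 reads in a library, plus the 4 genes of smallest adjusted p in each list. Counting limits cover counting error only. No sequence was used.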

Additional observations from a re-analysis of the deposited data

How the results depend on the processing

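Members that fell (33) numbered 18 with uniquely mapped reads, 16 with library totals, 14 with limma, 10 with the long-gene level subtracted, 13 among genes spanning under 10 kb, and 20 to 32 with 1 library left out. Members that rose numbered 1 with library totals, DESeq2, limma and spans under 10 kb, and 0 to 1 with 1 library left out. Those that fell were 78.3% of members tested with uniquely mapped reads and 32.5% in spans under 10 kb, against 25.2% and 13.4% of all genes in the same fits. Detected members were 21 in wild type and 19 in the mutants by uniquely mapped reads, and 24 and 12 in the mutants at a TPM of at least 5 and an RPKM of at least 1. The members' median log2 fold change was -1.17 with library totals, -0.65 with limma, -1.59 with the long-gene level subtracted, -1.25 in spans under 10 kb, -1.65 with overlapping genes summed (chosen after seeing the data) and -1.94 to -1.47 with 1 library left out. The anterior median was -1.25, -0.65 and -1.52 with library totals, limma and short spans (-2.01 to -1.44 leaving out 1 library). The central median was -0.41 with uniquely mapped reads and -1.79, -1.05, -1.76 and -5.16 with library totals, limma, short spans and the level subtracted (-2.36 to -1.98). The posterior median was -1.71 with uniquely mapped reads and -1.01, -0.52 and -0.99 with library totals, limma and short spans (-1.68 to -1.41). hoxb1b turned to 0.0077 with limma, and hoxc3a to 0.13 with uniquely mapped reads and 0.22 with limma.

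All genes that rose and fell numbered 8145 and 3605 with library totals, 9871 and 1648 with limma, 2455 and 3579 with the level subtracted, 1527 and 1616 in short spans (fewer genes tested), and 2310 to 6769 and 3975 to 6563 with 1 library left out. Of calls, 44.0% were rises by TMM, 69.3% with library totals and 85.7% with limma.

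Calls in the lists with limma were 6 (ParaHox), 3 (Polycomb), 4 (TALE), 10 (fin), 3 (neural) and 9 (retinoic acid). In short spans they were 0, 2 and 1 for the first 3, 2 for neural, 1 for retinoic acid and 13 for neighbours. With the level subtracted they were 5 for Polycomb, 23 for neighbours, 9 for fin and 9 for retinoic acid. ParaHox had 2 with DESeq2 and 0 at a CPM of at least 1. Leaving out 1 library gave 0 to 1 (ParaHox), 9 to 18 (Polycomb), 7 to 11 (TALE), 22 to 43 (neighbours), 11 to 16 (fin), 2 to 5 (neural) and 8 to 15 (retinoic acid). The causes were not tested.

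Whether libraries with the same replicate number were handled together was not stated. Over genes, their deviations from the group means had a correlation of -0.08, which cannot decide this with so few libraries. With a replicate block 30 members fell, and 0 ParaHox genes passed.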
